A study of Mus musculus with 9 samples.

Results

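The identity program of Kupffer cells, the macrophages that line the sinusoids of the liver, was followed through 10 genes, Clec4f, Vsig4, Timd4, Cd5l, Marco, Folr2, Spic, Nr1h3, Cd163 and Cd209f, out of 27998 genes in the single-cell count table. The genes were fixed by name, and each was read in cells with at least 5 unique molecular identifiers (UMIs, 1 per captured transcript) of C1qa, C1qb and C1qc together, called C1q-high cells below, and in all other cells of each library. Levels are given as CPM, the UMIs of a gene per 1000000 UMIs of those cells in a library. All 10 genes were present in the table and all 10 passed the filter on low counts in the C1q-high cells. Of 8562 liver cells, 35 had fewer than 200 genes and were left out, 1884 were C1q-high and 6643 were not.

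Cells from collagenase-digested whole livers of C57BL/6 mice gave 9 droplet 3' libraries in 3 groups, all carrying ROSA26-rtTA-IRES-EGFP and all given doxycycline. The 2 WT libraries had no tetYAP transgene and came from mice on doxycycline food for 7 days. The 4 YAP3d and the 3 YAP7d libraries carried tetYAP, a doxycycline-driven YAP transgene, with doxycycline for 3 and 7 days. According to the study's methods the rtTA allele was switched on by Cre from the albumin promoter, so the transgene was directed to hepatocytes and not to the macrophages measured here. No control group was on doxycycline for 3 days. The labels number the libraries of a group but do not say that each is a separate mouse, so p-values below measure the spread between libraries, which may be technical. The ages of the mice are not given in the sources used here.

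Kupffer cells descend largely from fetal precursors, renew in place, and clear particles, dying red cells and microbes from portal blood. Their identity program is held by transcription factors that include the liver X receptor alpha (Nr1h3) together with the general macrophage factor PU.1, and when resident cells are lost, monocytes that enter the niche switch the program on in steps, with some genes such as Timd4 appearing late. The 10 genes cover the surface lectins and phagocytic receptors of the cell (Clec4f, Vsig4, Timd4, Cd209f), its scavenger and uptake receptors (Marco, Cd163, Folr2), a secreted protein (Cd5l) and 2 transcription factors (Nr1h3, Spic).

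The start regions of 4 of the genes are shown because they carry the main contrasts of the report. Clec4f, Vsig4 and Cd5l gave most of the UMIs and varied together from cell to cell, and Cd209f had the largest fitted difference between groups. Each window runs from 250 bases before to 50 bases after the annotated start in RefSeq's annotation of GRCm38.p6, the same assembly as mm10, and is written 5′ to 3′ on the strand of the gene, with capitals marking GAGGAA, a core of the sites bound by PU.1, or AGGTCA, a nuclear receptor half-site, on either strand (printed as TTCCTC or TGACCT where the match lies on the other strand). The windows lie at chr6:83656067-83656366 on the minus strand, chrX:96293389-96293688 on the minus strand, chr3:87357631-87357930 on the plus strand and chr8:4105715-4106014 on the minus strand.
Clec4f: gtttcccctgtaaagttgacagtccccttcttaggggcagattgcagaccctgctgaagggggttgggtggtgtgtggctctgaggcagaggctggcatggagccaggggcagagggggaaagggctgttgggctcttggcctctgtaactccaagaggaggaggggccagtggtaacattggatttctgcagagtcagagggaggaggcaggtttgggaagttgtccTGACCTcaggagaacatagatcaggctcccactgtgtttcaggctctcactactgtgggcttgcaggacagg
Vsig4: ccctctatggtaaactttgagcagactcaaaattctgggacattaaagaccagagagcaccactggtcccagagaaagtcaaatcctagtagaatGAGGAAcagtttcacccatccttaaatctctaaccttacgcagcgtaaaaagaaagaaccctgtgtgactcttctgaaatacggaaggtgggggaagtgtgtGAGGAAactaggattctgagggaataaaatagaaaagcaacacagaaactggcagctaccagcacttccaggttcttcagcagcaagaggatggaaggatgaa
Cd5l: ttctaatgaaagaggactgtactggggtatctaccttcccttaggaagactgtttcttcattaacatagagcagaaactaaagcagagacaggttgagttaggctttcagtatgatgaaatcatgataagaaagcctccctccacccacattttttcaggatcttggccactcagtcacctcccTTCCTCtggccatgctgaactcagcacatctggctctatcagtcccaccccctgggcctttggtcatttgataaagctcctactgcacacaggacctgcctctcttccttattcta
Cd209f: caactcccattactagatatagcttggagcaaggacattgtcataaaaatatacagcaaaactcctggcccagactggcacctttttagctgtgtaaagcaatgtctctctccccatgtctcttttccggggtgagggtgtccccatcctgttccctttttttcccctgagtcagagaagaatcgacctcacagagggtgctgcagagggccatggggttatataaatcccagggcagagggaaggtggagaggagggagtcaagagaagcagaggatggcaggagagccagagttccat
GAGGAA was found in 28.3% and AGGTCA in 16.3% of 32851 such windows, counting both strands. The Vsig4 window held 2 GAGGAA matches, the Cd5l window 1 on the other strand and the Clec4f window 1 AGGTCA match on the other strand, while the letters of neither motif were in the Cd209f window. All 10 genes had a window, and of the remaining 6 genes Marco and 1 of 2 Nr1h3 windows held GAGGAA and Timd4 held AGGTCA. The matches describe letters and were not linked to any measurement.

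The libraries also fell into 2 sets that the labels do not name. Over all cells, Gm10709, a predicted gene, stood at 3.65 and 11 CPM in the WT libraries and at 4.69 and 11.2 in YAP3d replicates 3 and 4, but at 347 and 428 in YAP3d replicates 1 and 2 and at 363, 392 and 611 in the YAP7d libraries. With 100 CPM as the border, every WT library lay in the low set and every YAP7d library in the high set, so a difference between YAP7d and WT cannot be told apart from a difference between the sets. Only YAP3d had libraries in both. YAP7d could therefore be compared within a set with YAP3d replicates 1 and 2, and WT with YAP3d replicates 3 and 4. The border was chosen after seeing the data, and what separates the sets was not tested.

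Among all cells of a library, C1q-high cells were 6.72 and 7.84% for WT, 3.91, 17.4, 8.29 and 4.39% for YAP3d and 29.2, 50.3 and 59.8% for YAP7d. The 3 YAP7d libraries were above all others. The mean difference was 37.9 percentage points between YAP7d and YAP3d (exact two-sided permutation test, p = 0.0286, the smallest this design allows) and 39.2 between YAP7d and WT (exact permutation test, p = 0.2, where 0.1 is the smallest possible), while YAP3d and WT differed by 1.23 (exact permutation test, p = 0.867). Within the high set the share was 3.91 and 17.4% for YAP3d beside the 3 YAP7d values, and within the low set the WT values lay between those of YAP3d replicates 3 and 4. The gate counts UMIs without regard to depth. Its differences were larger than those of a gate that scales with depth and is also stricter, and which of these 2 changes mattered was not tested. Cells with at least 50 C1q UMIs per 10000 were 5.37 and 5.79% of all cells for WT, 3.56, 11.1, 6.40 and 3.41% for YAP3d and 21.9, 39.9 and 23.5% for YAP7d. The mean differences were then 22.3 percentage points (YAP7d minus YAP3d) and 22.8 (YAP7d minus WT), with YAP7d still above all other libraries. The gate of 5 UMIs held 11 to 112 cells per library in WT and YAP3d and 175 to 1096 in YAP7d, with 61689 to 18971141 UMIs behind the summed values. The median depth of a C1q-high cell was 2045 to 11911 UMIs in WT and YAP3d and 9796 to 14822 in YAP7d. General macrophage markers (7 genes, among them Csf1r, Cd68 and Adgre1) were all found in the C1q-high cells of every library. Their summed level was 8626 to 19452 CPM in WT, 6214 to 14569 in YAP3d and 5928 to 8453 in YAP7d. Libraries shared 46 cell barcodes, and no 2 replicates were alike within sampling noise.

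YAP7d replicate 3 stood apart. Its 1096 C1q-high cells had a median of 13 C1q UMIs, 41.8% of them had 5 to 9, and 39.3% reached 50 C1q UMIs per 10000, against 63.6 to 90.9% in the other 8 libraries. In its cells with 5 to 9 C1q UMIs the 10 genes together stood at a summed level of 197 CPM, which is the level of its cells with 2 to 4 C1q UMIs (198) and of those with 1 (217), at 10 to 49 it stood at 315, and it reached 4315 in cells with 50 or more. In YAP7d replicate 2 the cells with 5 to 9 were also at the level of those with 2 to 4 (273 and 271 CPM), and WT replicate 2 stood at 135 against 79.1 CPM, but cells with 10 to 49 stood between 2028 and 10474 CPM in the other 8 libraries. Cells with 50 or more stood there between 5328 and 15065. A stricter gate of 50 C1q UMIs per 10000 was therefore added after seeing the data, and fold changes are also given without this library.

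**Figure D1:**
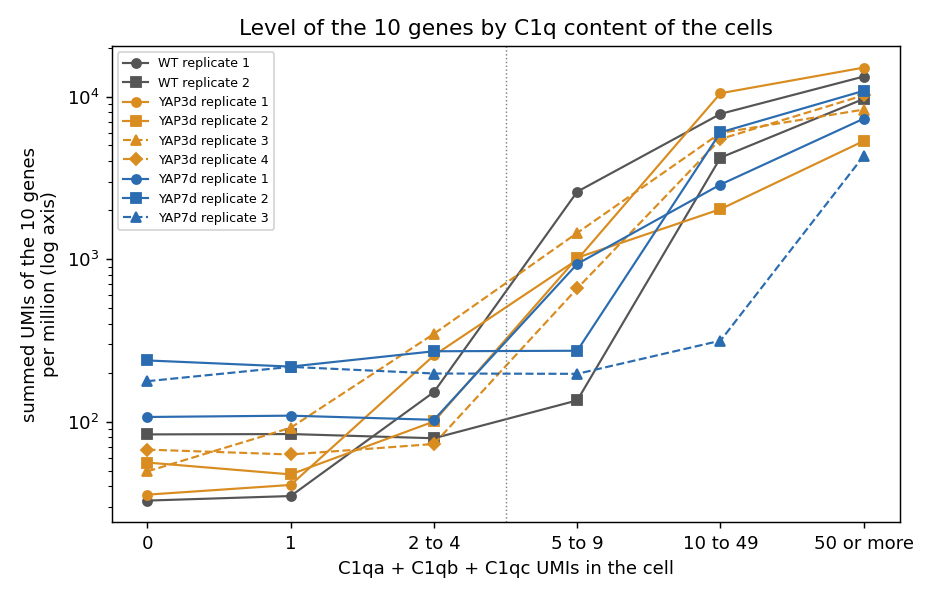
Summed level of the 10 genes in CPM (log axis) in cells binned by their C1qa, C1qb and C1qc UMIs, 1 line per library; the dotted line marks the gate of 5 UMIs. In every library the cells with 50 or more C1q UMIs had the highest level, from 4315 in YAP7d replicate 3 to 15065 in YAP3d replicate 1, and YAP7d replicate 3 stayed near 197 at 5 to 9 C1q UMIs.

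All 10 genes were higher in C1q-high cells than in the other cells of the same library in 9 of 9 libraries. The median ratio over libraries ran from 27.2 for Nr1h3 to 148 for Vsig4, and was 79.8 for Clec4f and 106 for Cd5l. Cd209f had no UMI outside the gate in 7 of 9 libraries, so its ratio is known only in the other 2. Within the gate, cells with at least 50 C1q UMIs per 10000 exceeded the remaining cells in 9 of 9 libraries for 8 genes, in 8 for Cd209f and in 7 for Spic. The C1q genes chose the cells and not the members, so these values describe the fit of the gate to the genes rather than a difference between groups.

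Of the surface lectins and receptors, Clec4f, a galactose-binding lectin found in rodents almost only on Kupffer cells, stood at 2639.8 and 2159.5 CPM in WT, 3712, 924, 1669 and 2304 in YAP3d and 1635, 2097 and 452 in YAP7d. All YAP7d values were below the lower WT value, with replicate 2 only just so, and they overlapped those of YAP3d. The group means were 2399.7 ± 339.6, 2152 ± 1183 and 1395 ± 848 (SD, n = 2, 4 and 3). The fitted log2 fold change of YAP7d over WT was -0.75 (SE 0.54, adjusted p = 0.529 by edgeR). Adjusted p-values here and below are from edgeR's quasi-likelihood test unless DESeq2 is named. The Benjamini-Hochberg adjustment ran over the genes tested in each fit, which were 8450 in the main fit. Without YAP7d replicate 3 the log2 fold change of Clec4f was -0.37 (SE 0.45, adjusted p = 0.747 by edgeR) and without YAP7d replicate 2 -1.15 (SE 0.57, adjusted p = 0.420). The Clec4f difference did not pass the test with or without these libraries.

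Vsig4, the complement receptor CRIg that captures C3b-coated particles, was at 1686 and 1300.4 CPM in WT, 2042, 596, 1268 and 1633 in YAP3d and 853, 1489 and 327 in YAP7d. YAP7d replicate 2 lay between the WT libraries. Timd4, a phosphatidylserine receptor for dying cells, was at 344 and 318 in WT, 503, 170.5, 402 and 330.1 in YAP3d and 299, 414 and 74.6 in YAP7d. YAP7d replicate 2 was above both WT libraries, and replicate 3 was the lowest of all 9. The fitted log2 fold changes of YAP7d over WT were -0.71 (SE 0.51) for Vsig4 and -0.32 (SE 0.54) for Timd4, and neither passed the test. Without YAP7d replicate 3 they were -0.35 and 0.09, and without YAP7d replicate 2 they were -1.27 and -0.79.

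Cd209f, a C-type lectin of the DC-SIGN family, had the largest fitted difference of the 10 genes and the fewest UMIs. It gave 1 and 40 UMIs for WT, 9, 28, 1 and 25 for YAP3d and 11, 12 and 24 for YAP7d, which are 8.83 and 42.3, 146, 32.3, 5.66 and 31.6 and 4.35, 4.17 and 1.27 CPM. Every YAP7d value was below every other library, but in WT replicate 1 and YAP3d replicate 3 the level rested on a single UMI, with exact Poisson 95% intervals of 0.224 to 49.2 and 0.143 to 31.5 that hold all 3 YAP7d values. The fitted log2 fold change was -3.53 (SE 0.81, adjusted p = 0.0593) against WT and -3.64 (SE 0.73, adjusted p = 0.0812) against YAP3d, so Cd209f missed the threshold of 0.05 in both comparisons.

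Whether Cd209f passed the test depended on the gate, the tool and the libraries kept. With at least 50 C1q UMIs per 10000 Cd209f fell by the edgeR test, at -3.67 (SE 0.65, adjusted p = 0.00692) against WT and -3.63 (SE 0.57, adjusted p = 0.00558) against YAP3d, where the adjusted p-values run over 7297 genes. DESeq2 called it at -3.33 (SE 0.90, adjusted p = 0.0165) and -3.80 (SE 0.74, adjusted p = 2.58e-04). Without YAP7d replicate 3 edgeR gave -3.02 (SE 0.76, adjusted p = 0.0481) and -3.03 (SE 0.70, adjusted p = 0.0542). Without YAP3d replicate 2 it gave -3.58 (SE 0.83, adjusted p = 0.0342) and -3.76 (SE 0.83, adjusted p = 0.0282). With the set of the library as a term Cd209f was at -4.84 (SE 1.17, adjusted p = 1) and -4.29 (SE 0.81, adjusted p = 0.406), and against YAP3d within the high set alone at -4.32 (SE 0.76, adjusted p = 0.459). Without WT replicate 2 the WT group rested on 1 UMI and the fold change was -1.48 (SE 2.41, adjusted p = 0.841). Cd209f sits in a cluster of Cd209 paralogues on chromosome 8, and reads shared with a paralogue could have been lost in the authors' counting, which was not tested.

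**Figure D2:**
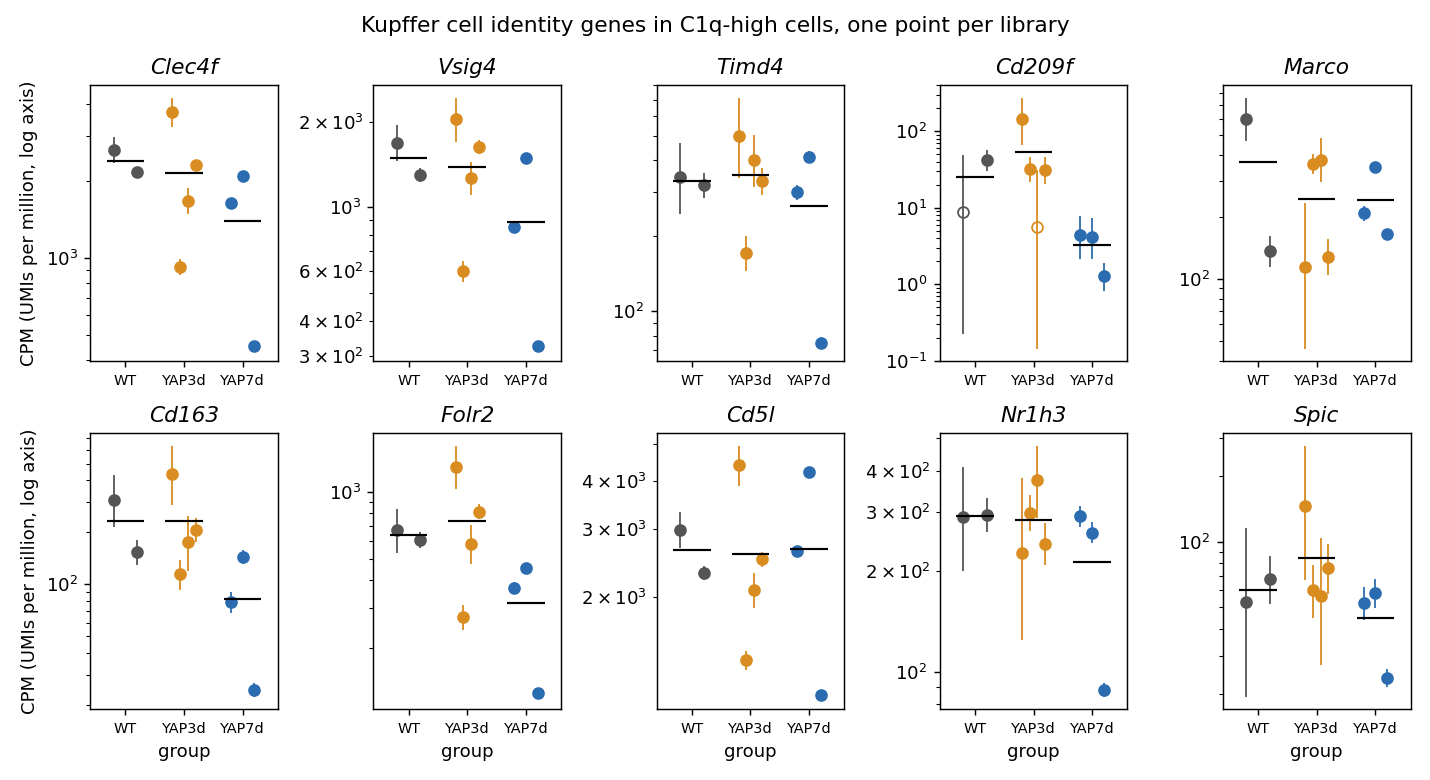
CPM (log axis, a scale of its own for each gene) of the 10 genes in C1q-high cells, 1 point per library with its exact Poisson 95% interval, which covers counting error only; open points rest on 3 UMIs or fewer and black lines are group means. YAP7d replicate 3 is the lowest library for 9 of the 10 genes, among them Cd209f, where all 3 YAP7d points lie between 1.27 and 4.35; for Marco the lowest is YAP3d replicate 1.

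Among the scavenger and uptake receptors, Cd163, the receptor for haptoglobin-bound haemoglobin, was at 309 and 153 CPM in WT, 438, 114, 175 and 207 in YAP3d and 79.1, 144 and 24.5 in YAP7d. All YAP7d values were below both WT values, and YAP7d replicate 2 overlapped the YAP3d range. The log2 fold change was -1.40 (SE 0.61, adjusted p = 0.279) against WT and -1.30 (SE 0.53, adjusted p = 0.329) against YAP3d by edgeR. Folr2, a folate receptor of resident macrophages, was at 671 and 611 in WT, 1297, 274, 583 and 813 in YAP3d and 369, 453 and 125 in YAP7d. The YAP7d values were again below both WT values and overlapped YAP3d only through YAP3d replicate 2, with log2 fold changes of -0.99 (SE 0.53, adjusted p = 0.381) and -1.10 (SE 0.46, adjusted p = 0.346) by edgeR. Neither gene passed the test in this fit. Without YAP7d replicate 3 the log2 fold changes against WT and YAP3d were -0.98 and -0.88 for Cd163 and -0.65 and -0.76 for Folr2. Without YAP7d replicate 2 those of Cd163 were -2.05 and -1.95, and without WT replicate 1 the value against WT was -0.90. Cd163 passed under 1 of the alternatives, a filter that kept every gene with at least 1 count, with an adjusted p of 0.0250 against WT and 0.0168 against YAP3d by edgeR, where 4.29% and 2.96% of all genes passed.

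Marco, a scavenger receptor for bacteria and particles, was at 600.4 and 136 CPM for WT, 113, 361, 379 and 128 for YAP3d and 208, 348 and 165 for YAP7d. The highest value was that of WT replicate 1 with WT replicate 2 among the lowest, and the fitted log2 fold change of YAP7d over WT moved from -0.46 (SE 0.60) with both WT libraries to 0.85 (SE 0.66, adjusted p = 0.704) by edgeR without WT replicate 1 and -1.18 (SE 0.61, adjusted p = 0.511) without WT replicate 2. Without YAP7d replicate 3 it was -0.29 and without YAP7d replicate 2 it was -0.79.

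Cd5l, a secreted protein that binds lipids and IgM and is also known as AIM, was at 2993 and 2307 CPM in WT, 4393, 1371, 2088 and 2509 in YAP3d and 2644, 4220.3 and 1118 in YAP7d. YAP7d replicate 1 lay within the WT range, replicate 2 above it, and replicate 3 was the lowest of all libraries. Its fitted log2 fold change of YAP7d over WT was 0.04 (SE 0.47, adjusted p = 0.991) by edgeR, the one value above 0 among the 10 genes in that comparison, with 0.37 without YAP7d replicate 3 and -0.42 without YAP7d replicate 2.

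Of the transcription factors, Nr1h3, the oxysterol receptor LXR alpha, was at 291 and 295 CPM in WT, 227, 298, 374 and 242 in YAP3d and 292, 260.4 and 88.2 in YAP7d. Leaving aside YAP7d replicate 3, its libraries spanned 227 to 374. Spic, a factor needed for red pulp and other iron-recycling macrophages, was at 53 and 67.7, 146, 59.9, 56.6 and 75.9 and 52.2, 58.3 and 23.7. The log2 fold changes of YAP7d over WT were -0.44 (SE 0.41) and -0.50 (SE 0.42), and without YAP7d replicate 3 they were -0.10 and -0.23. With 1 library left out Nr1h3 reached -0.72 (without YAP7d replicate 1) and Spic ran from -0.70 (without YAP7d replicate 2) to -0.12 (without WT replicate 2).

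Counted over the 10 genes, none passed edgeR's quasi-likelihood test between YAP7d and WT (Benjamini-Hochberg adjusted p of 0.05), where 0.852% of 8450 tested genes did, although 9 of the 10 fitted values were below 0. Without adjustment 2 had an edgeR p under 0.05, Cd209f and Cd163, beside 16.4% of all genes, and DESeq2 called 1, Cd209f, beside 2.79%. None passed between YAP7d and YAP3d, where 0% of all genes did, with 3 under an unadjusted p of 0.05 (Cd209f, Cd163 and Folr2; 12.5% of all genes) and 1 called by DESeq2, Cd209f (1.37% of all genes). None passed between YAP3d and WT, again with 0% of all genes, none under an unadjusted p of 0.05 (2.43% of all genes) and none called by DESeq2 (0.0118%). The median log2 fold change of the 10 genes was -0.61, -0.53 and -0.09 in the 3 comparisons, beside 0.04, 0.01 and 0.02 over all tested genes. The 7 general macrophage markers also had medians below 0, at -0.35, -0.30 and -0.15, with 5, 5 and 4 fitted values below 0. Against WT their median was -0.50 with at least 50 C1q UMIs per 10000, with 6 values below 0. Fitted values below 0 were thus not particular to the 10 genes. With at least 50 C1q UMIs per 10000, 1 gene, Cd209f, passed against WT (1.59% of all genes) and against YAP3d (0.932% of all genes). Against WT all 10 fitted values were then below 0, with a median of -0.78 beside 0.05 over all genes. Without adjustment 5 had an edgeR p under 0.05, beside 1228 of 7297 tested genes. Against YAP3d 8 values were below 0, with a median of -0.45 and 3 under an unadjusted p of 0.05, beside 847 of 7297 genes. Comparisons with YAP7d share its libraries and are not independent of each other.

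The libraries of YAP7d lay wholly below those of WT for 4 of the 10 genes, Clec4f, Folr2, Cd163 and Cd209f, where 20.5% of all tested genes did, and wholly below those of YAP3d for 1, Cd209f, where 4.41% did. None of the 10 lay wholly above, where 22.1% of all tested genes did against WT and 5.68% against YAP3d. The summed level of 8 endothelial markers in the C1q-high cells was 2174 to 3381 CPM in WT, 81.1 to 3769 in YAP3d and 103 to 291 in YAP7d, and Clec4g and Ptprb of that list fell in YAP7d against WT, by 5.26 (SE 0.98, adjusted p = 0.0382) and 5.38 (SE 1.09, adjusted p = 0.0465) on the log2 scale by edgeR. Hba-a1 and Hba-a2, haemoglobin chains of red cells, also fell, by 4.72 (SE 0.63, adjusted p = 0.0313) and 4.76 (SE 0.90, adjusted p = 0.0382) by edgeR. These 4 calls were not stable. The adjusted p-values by edgeR were 0.0623 to 0.0676 without YAP3d replicate 1 and 0.0913 to 0.159 without YAP7d replicate 2. They were 1 for each with the set of the library as a term. Clec4g, Ptprb and Hba-a2 also missed the threshold without YAP7d replicate 1. Without WT replicate 1 the 4 log2 fold changes were -5.29 to -4.98. Without WT replicate 2 they were -5.41 (Clec4g), -5.58 (Ptprb), -2.34 (Hba-a1) and 5.60 (Hba-a2, with a standard error above the value). With a gate of 2 C1q UMIs Hba-a1 and Hba-a2 were at -0.73 (adjusted p = 0.748) and -0.41 (adjusted p = 0.907) by edgeR. Clec4g and Ptprb were still called there, at -4.81 and -4.97. All 4 were called at 50 C1q UMIs per 10000 by edgeR (-5.27 to -4.09) and by DESeq2 (-5.64 to -4.44). The endothelial sum went with the sets, at 81.1 and 391 CPM in YAP3d replicates 1 and 2 and 3769 and 2519.5 in replicates 3 and 4. The 12 monocyte genes summed to 679.8 to 2946 in WT, 753 to 4433 in YAP3d and 2106 to 6246 in YAP7d, with the highest value in YAP7d replicate 3. The 4 neutrophil markers summed to 2505 in YAP7d replicate 3 and to 0 to 297 elsewhere, where Ly6g was at 0. The 5 hepatocyte markers summed to 49.7 to 124 in WT, 56.4 to 158 in YAP3d and 196 to 244 in YAP7d. With at least 50 C1q UMIs per 10000 the groups overlapped, at 53.3 to 80.3, 58 to 187 and 53.2 to 81.3. In the remaining C1q-high cells the sums were 38.8 to 208, 0 to 94.1 and 337 to 1086. The part of these cells or transcripts in the members' values was not tested.

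**Figure D3:**
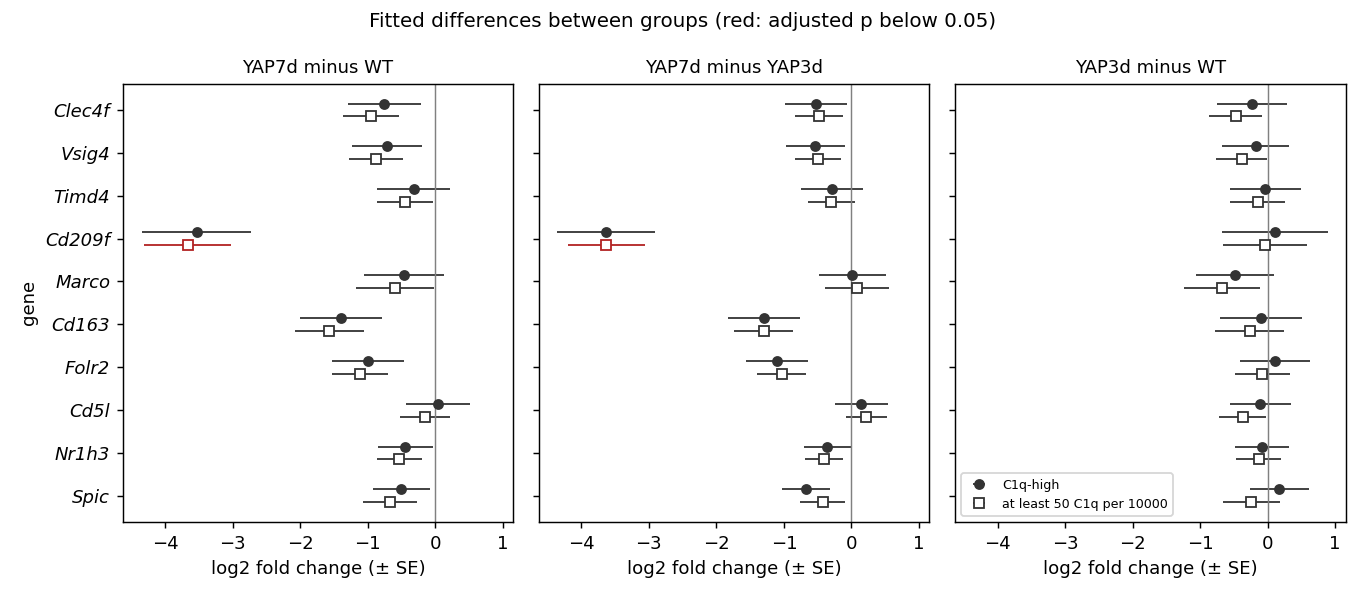
Fitted log2 fold change with its standard error (horizontal bar) of the 10 genes for YAP7d over WT, YAP7d over YAP3d and YAP3d over WT, in C1q-high cells (filled circles) and in cells with at least 50 C1q UMIs per 10000 (open squares), with red for an adjusted p below 0.05. Cd209f lies at -3.53 and -3.64 in the comparisons of YAP7d and is red only under the stricter gate.

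Among the UMIs of the 10 genes, Cd5l took a larger part in all 3 YAP7d libraries. Taking the UMIs of the 10 genes in the C1q-high cells of a library as 100%, Cd5l held 31.2 and 31.2% in WT, 33.7, 32.6, 29.8 and 30.3% in YAP3d and 41.1, 44.5 and 46.6% in YAP7d. No YAP7d library overlapped WT or YAP3d, in either set, and the lowest YAP7d share was 7.33 percentage points above the highest YAP3d share. By CPM, where the Cd5l ranges overlapped, 22.1% of all tested genes lay wholly above WT in YAP7d and 5.68% wholly above YAP3d. YAP7d replicate 3, which was lowest in level, had the highest Cd5l share. A share within the 10 genes does not depend on how many other transcripts the cells hold. The difference between the YAP7d and WT means stayed between 12.4 and 13.2 percentage points over 6 ways of choosing cells. These ways counted mostly the same UMIs, since 89.8 to 98.9% of a library's Cd5l UMIs lay in the C1q-high cells. Their closeness is therefore not separate support. The share was looked at after the values were known, so no test is given, and since the shares of a library sum to 100%, a larger share of Cd5l lowers those of the other genes.

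Cd163, Folr2 and Cd209f held smaller shares in YAP7d. Cd163 held 3.22 and 2.08% in WT, 2.51 to 3.36% in YAP3d and 1.23, 1.52 and 1.02% in YAP7d. Folr2 held 6.99 and 8.26% in WT, 6.53 to 9.96% in YAP3d and 5.74, 4.78 and 5.21% in YAP7d. Cd209f held 0.0920 and 0.573% in WT, 0.0808 to 1.12% in YAP3d and 0.0676, 0.0439 and 0.0527% in YAP7d. For these 3 genes the YAP7d values lay below every WT and YAP3d value, but for Cd209f the nearest shares, those of WT replicate 1 and YAP3d replicate 3, each rested on 1 UMI, and that gap is within counting error. Such shares cannot be set beside all genes. By CPM, 20.5% of all tested genes lay wholly below WT in YAP7d and 4.41% wholly below YAP3d. Read per Clec4f UMI, which leaves the share of Cd5l out, the ratio of Folr2 was 0.254 and 0.283 for WT, 0.349, 0.297, 0.349 and 0.353 for YAP3d and 0.226, 0.216 and 0.276 for YAP7d, where YAP7d overlapped WT. The same ratio of Cd163 was 0.117 and 0.0710 for WT, 0.118, 0.123, 0.105 and 0.09 for YAP3d and 0.0484, 0.0687 and 0.0541 for YAP7d, which did not overlap but came close. Clec4f held 27.5 to 29.2% in WT, 22 to 28.5% in YAP3d and 18.8 to 25.4% in YAP7d, and Vsig4 held 17.6 and 17.6%, 14.2 to 19.7% and 13.3 to 15.7%. For both the YAP7d shares lay below those of WT and overlapped those of YAP3d. The shares of Timd4, Marco, Nr1h3 and Spic overlapped those of both groups.

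The ratio of Cd5l to Clec4f UMIs puts the shift in 1 number. In C1q-high cells it was 1.07 to 1.13 in WT, 1.09 to 1.48 in YAP3d and 1.62 to 2.47 in YAP7d. In the cells outside the gate it was 0.795 to 0.842, 0.983 to 1.14 and 1.46 to 2.36. The YAP7d libraries thus had the highest ratio in both sets of cells, and the ratio outside the gate was somewhat lower than inside it in each of the 9 libraries.

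**Figure D4:**
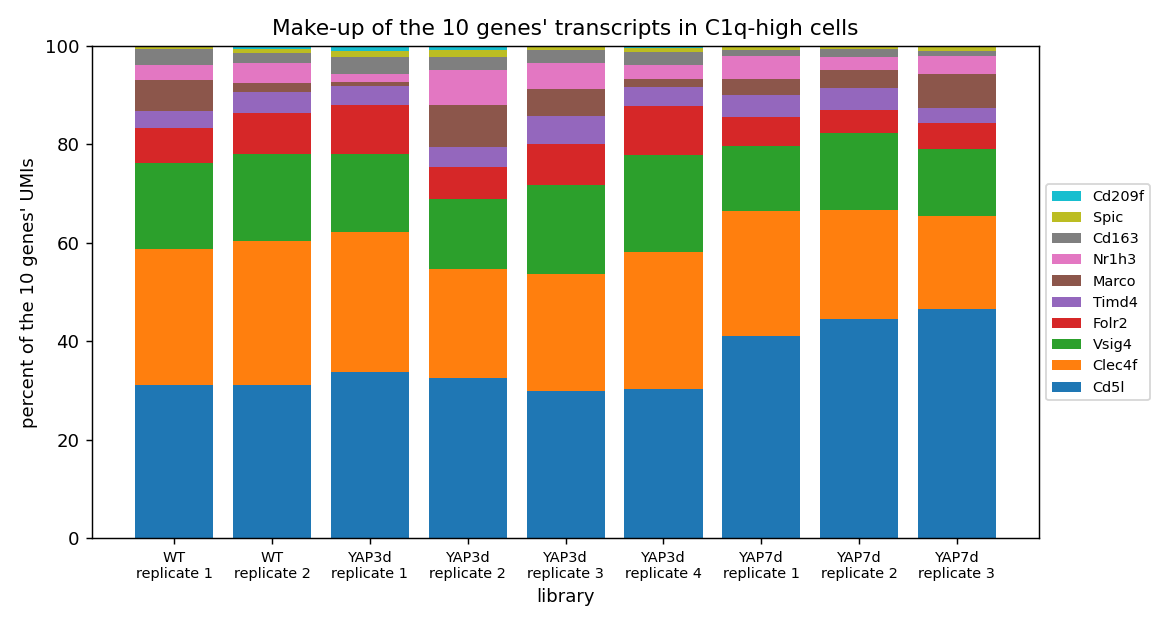
Percent of the UMIs of the 10 genes that each gene holds in the C1q-high cells of each library (stacked bars, 100% per library). The Cd5l segment at the bottom is 41.1 to 46.6% in the 3 YAP7d libraries and 29.8 to 33.7% in the 6 others.

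Cd5l, and the other members with it, were also read as the share of cells in which they were found. To compare libraries of unequal depth, each cell was thinned to 1000 UMIs, which left out 5 WT, 3 YAP3d and no YAP7d C1q-high cells. The gate was applied before thinning, so deeper cells could pass it at a lower C1q rate. Library medians of that rate in C1q-high cells were 101 to 141 C1q UMIs per 10000 in WT, 58.6 to 177 in YAP3d and 11.2 to 118 in YAP7d. The thinned shares are not matched for this difference. A Cd5l UMI was then found in 67.9% ± 2.99 of C1q-high cells in WT, 65.1% ± 13.3 in YAP3d and 49.8% ± 22 in YAP7d (SD over libraries, n = 2, 4 and 3). Before thinning the ranges were 76.6 to 80%, 62.3 to 90.9% and 74.3 to 87.9%. YAP7d replicate 3 alone was at 25.2% after thinning, below the other 8 libraries.

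After thinning Cd163 had a UMI in 16.7 and 17.1% of C1q-high cells in WT, 20, 18.2, 21.2 and 17.9% in YAP3d and 6.86, 14.2 and 1.37% in YAP7d. The YAP7d values were the lowest, but the gap of replicate 2 to the others is within counting error, at 33 of 232 (exact 95% interval 10 to 19.4%) against 5 of 30 (exact 95% interval 5.64 to 34.7%) in WT replicate 1 and 2 of 10 (exact 95% interval 2.52 to 55.6%) in YAP3d replicate 1. Before thinning, when YAP7d cells were deeper, the ranges overlapped, at 42.3 to 42.9%, 32.5 to 44.6% and 16.8 to 46.1%. Folr2 had a UMI in 43.9% ± 8.60 of thinned cells in WT, 38.4% ± 16.7 in YAP3d and 19.7% ± 9.99 in YAP7d, and YAP3d replicate 2 at 19.5% lay within the YAP7d range. Before thinning its ranges were 58.6 to 68.6%, 39 to 81.8% and 35.9 to 62.9%.

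Counted together, 3 or more of the 10 genes were found in 64.1% ± 13 of thinned C1q-high cells in WT, 61.3% ± 14.9 in YAP3d and 40% ± 24.1 in YAP7d. None of the 10 was found in 14.1, 16.8 and 38.5% of cells (means), and the YAP7d mean holds a library at 63%, which is replicate 3. With at least 50 C1q UMIs per 10000 the shares with 3 or more were 80.1, 73.9 and 54.1%. Outside the gate they were at most 0.437% in any library.

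T cells, which should lack the genes and were chosen by at least 2 UMIs of Cd3d, Cd3e and Cd3g with under 5 C1q UMIs, gave the background. They had a Cd5l UMI in 0 to 1.69% of cells in WT, 0 to 1.12% in YAP3d and 2.86 to 8.93% in YAP7d after thinning. Their median depth before thinning was 4422 to 4793 UMIs in WT and YAP3d and 4216 to 5754 in YAP7d. Without thinning a Cd5l UMI was seen in 23.8 to 42.3% of YAP7d T cells and in 3.74 to 9.66% of WT T cells. After thinning no member was above 8.93% in T cells of any library, and Cd209f had no UMI in any thinned T cell. Cd209f was found in 0 of 232 thinned C1q-high cells in YAP7d replicate 2, with an exact 95% binomial upper bound of 1.58%, and in 0 of 30 in WT replicate 1, where the bound of 11.6% spans every other library. No order between groups is read from the share of Cd209f or Spic.

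**Figure D5:**
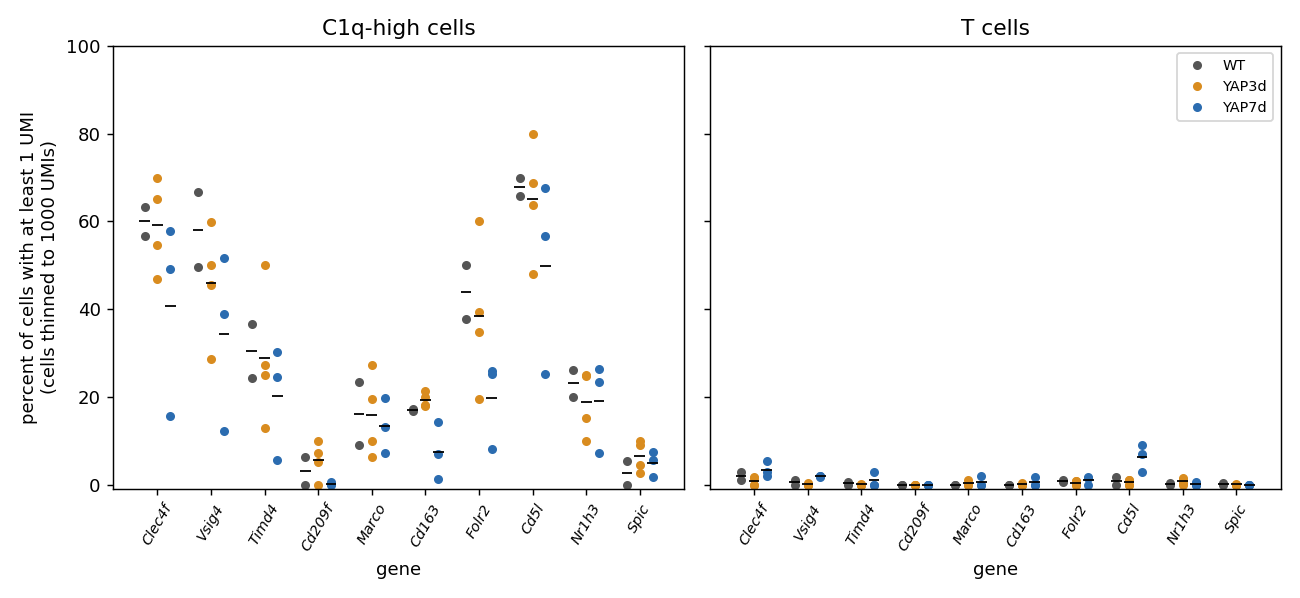
Percent of cells with at least 1 UMI of each of the 10 genes after thinning each cell to 1000 UMIs, in C1q-high cells (left) and in T cells (right), 1 point per library with black lines at the group means. In T cells the highest points belong to Cd5l in YAP7d, at 2.86 to 8.93%, against 25.2 to 67.7% of C1q-high cells in the same group.

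From cell to cell within a library, Clec4f, Vsig4, Cd5l, Folr2 and, less closely, Timd4 varied together. Over the 8 libraries with at least 20 C1q-high cells, the mean Pearson correlation of log values was 0.80 (range 0.62 to 0.92) for Clec4f with Cd5l, 0.79 (range 0.62 to 0.90) for Clec4f with Vsig4, 0.76 (range 0.61 to 0.85) for Vsig4 with Cd5l and 0.72 (range 0.54 to 0.85) for Vsig4 with Folr2. The cells share a library and a range of depths and include cells at the edge of the gate, so these are descriptions. Timd4 had means of 0.61 (range 0.35 to 0.85) with Clec4f and 0.68 (range 0.42 to 0.85) with Vsig4. Nr1h3, the transcription factor, had means of 0.49 (range 0.34 to 0.70) with Clec4f and 0.50 (range 0.34 to 0.66) with Cd5l. The sparse genes were weakest, with 0.24 (range -0.03 to 0.43) for Clec4f with Spic and 0.17 (range 0.05 to 0.26) for Clec4f with Cd209f, values that carry little weight at these counts.

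The genes outside the 10 whose levels most resembled their sum from cell to cell were Fcna (0.78), Slc40a1 (0.75), Cfp (0.69), Apoc1 (0.67), Igf1 (0.66), Fabp7 (0.65), Sdc3 (0.64) and Il18bp (0.62), with the mean correlation over 8 libraries in parentheses and 3156 genes compared. Fcna encodes ficolin A, Slc40a1 the iron exporter ferroportin and Cfp properdin of the complement system.

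Genes around the members were counted from lists grouped by role. Of 17 other genes of Kupffer cells and resident macrophages, none passed the edgeR test between YAP7d and WT in C1q-high cells, with 14 fitted values below 0, 6 unadjusted p-values under 0.05 and a median log2 fold change of -0.67 beside 0.04 for all tested genes, and DESeq2 called 1, Hmox1. In this comparison 16.4% of all tested genes had an unadjusted p under 0.05 and DESeq2 called 2.79%, and the counts of the lists below are to be read against these shares. With at least 50 C1q UMIs per 10000, Hmox1, the haem-degrading enzyme, and Sdc3, a syndecan, fell on the log2 scale by 1.54 (SE 0.30, adjusted p = 0.0142) and 1.40 (SE 0.34, adjusted p = 0.0495) by edgeR, and the list's median was -0.87. Of 12 known targets of LXR, the receptor family of Nr1h3, none passed edgeR's or DESeq2's test, 3 had an unadjusted edgeR p under 0.05, and the median was 0.10. Of 12 macrophage transcription factors none passed the edgeR test, 2 had an unadjusted p under 0.05 and DESeq2 called 1, Maf, with a median of -0.38 and 9 values below 0. Of 14 relatives of the members by gene family, among them Cd209a and Havcr2, 3 had enough counts to be tested, and none passed edgeR's or DESeq2's test or had an unadjusted p under 0.05.

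Proliferation genes lay on the other side of 0. All 8 in the list had a positive fitted value in YAP7d against WT and against YAP3d, with medians of 2.15 and 1.59 and an unadjusted p under 0.05 for 8 and 8, yet none passed the adjusted edgeR test. DESeq2 called 4 against WT (Birc5, Ccnb1, Mki67 and Stmn1) and 3 against YAP3d (Cdk1, Stmn1 and Tyms). Over all tested genes the shares were 16.4% and 12.5% under an unadjusted p of 0.05, and 2.79% and 1.37% called by DESeq2. With the stricter gate Ccnb1, a mitotic cyclin, rose against WT by 4.69 (SE 1.14, adjusted p = 0.0497) and Cdk1, its kinase, rose against YAP3d by 1.52 (SE 0.33, adjusted p = 0.0433) on the log2 scale by edgeR. Of 12 monocyte genes 11 were tested, none passed edgeR's test in YAP7d against WT, 4 had an unadjusted p under 0.05, DESeq2 called 1, Cx3cr1, and the median was 0.70. With the stricter gate Fn1, fibronectin, fell on the log2 scale by 5.95 (SE 1.43, adjusted p = 0.0486) by edgeR, and it had no UMI in the C1q-high cells of WT replicate 1.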

How the data were processed

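The authors aligned and counted the reads with Cell Ranger against mm10 and handled them with Seurat 2, per the labels and the study's methods, and deposited 1 table of raw UMI counts (27998 genes by 8562 cells, no normalization), with the library in each cell's name. The labels name v2 and v3 reagent kits, and the study's methods give v2 for the whole-liver libraries used here. All columns were mapped to the 9 libraries. Cells with at least 200 genes were kept, and no doublet caller was run. An alternative left out C1q-high cells with markers of other types.

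UMIs were summed per library over the C1q-high cells and tested with edgeR 4.0.16 (R 4.3.3; TMM, filterByExpr, quasi-likelihood test, all 3 groups in 1 fit, Benjamini-Hochberg over 8450 genes), with DESeq2 1.42.0 as an alternative. The step was tested on simulated counts. Levels are CPM over the cells summed. Shares of cells were compared after thinning each cell to 1000 UMIs and tested, for the gate, by exact permutation (scipy 1.17.1). Poisson and binomial intervals are exact, at 95%, and cover counting error only. The resemblance of a gene to the 10 genes is the mean correlation over cells of log values, among genes found in at least 10% of C1q-high cells of each of 8 libraries, and the 8 highest are named. Of the gene lists, genes past the threshold are named where a list is described, and not for every comparison and setting.

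The 10 genes and the lists were chosen with earlier results of these data known. The gate of 50 C1q UMIs per 10000, the fits with the set of the library (Gm10709 above or below 100 CPM) as a term or within 1 set, and the shares within the 10 genes were added after seeing the data. Promoter windows come from RefSeq, GRCm38.p6. Summed depth in the C1q-high cells was 61689 to 18971141 UMIs per library.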

Additional observations from a re-analysis of the deposited data

Results flagged for a closer look

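Of 21 series of library values examined in the groups of 4 libraries, 1 had a library far from the rest by Dixon's test, and chance flags about 1 in 20 such groups. In the C1q-high cells of YAP3d, Timd4 held 5.74% of the UMIs of the 10 genes in replicate 3, while the other 3 YAP3d libraries lay between 3.86 and 4.06%.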

How the results depend on the processing

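The difference in the share of C1q-high cells kept its sign when single libraries were left out for YAP7d minus WT (32.5 to 47.8 percentage points) and YAP7d minus YAP3d (31.3 to 46.5), but not for YAP3d minus WT (-1.75 to 2.76), which was -0.897 with a gate of 2 C1q UMIs. With 4 other gates the differences of YAP7d from WT and from YAP3d were 22.8 to 55.8 and 22.3 to 56.7. The number of genes called varied widely. In the edgeR test of YAP7d against WT (72 called) it was 236 with DESeq2, 732 with a filter of 1 count, 195 with only the groups compared, 491 and 137 with gates of 2 and 10 C1q UMIs, 400 and 116 with 10 and 50 per 10000, and 0 when cells with markers of other types were left out (970 genes tested, with YAP3d replicate 1 and YAP7d replicate 3 lost) or a term for the 2 sets of libraries (Gm10709) was added. Against YAP3d (0 called, 1054 at an unadjusted p under 0.05) it was 116 with DESeq2, 505 with the filter of 1 count, 310 and 56 with the gates, and 232 and 68 per 10000. For YAP3d against WT (0 called, 205 unadjusted) it was 1 with DESeq2, 34 with the filter and 1 at 50 per 10000. Leaving out 1 library gave 0 to 389 calls against WT, 0 to 494 against YAP3d, and 0 to 0 between YAP3d and WT. Within 1 set YAP7d against YAP3d and YAP3d against WT gave 0 calls, with 373 and 90 genes at an unadjusted p under 0.05. Against WT there were 0 calls without WT replicate 2, YAP3d replicate 1 or YAP7d replicate 2, 4 without YAP7d replicate 1, 28 without WT replicate 1, 271 without YAP7d replicate 3 and 389 without YAP3d replicate 2. Replicate numbers did not mark paired libraries (same-number correlations of -0.174 to 0.139), and a fit with the replicate number as a block called 510, 52 and 53 genes in the 3 comparisons, Cd209f among them at adjusted p-values of 0.0251 and 0.0281 for YAP7d. The cause of these changes was not tested. Cd163 ranged from -2.05 to -0.90 against WT and from -1.95 to -0.88 against YAP3d with 1 library left out, and was called in 1 alternative of each (adjusted p of 0.0250 and 0.0168 by edgeR with the filter of 1 count). For Clec4g, Ptprb, Hba-a1 and Hba-a2 that filter gave standard errors of 0.39 to 0.58, against 0.63 to 1.09 in the main fit. Low p-values under it therefore carry less weight. Cd209f was below 0 in all 20 alternatives against WT and 21 against YAP3d in which it was tested (it had too few counts without the cells of other types) and was called in 9 of 20 against WT (adjusted p of 9.95e-08 to 1) and 8 of 21 against YAP3d (5.07e-10 to 0.459). For YAP7d minus WT the log2 fold change of Cd5l was -0.057 with DESeq2, -0.056 with its size factors, -0.14 at a gate of 10, -0.54 without cells of other types, -0.15 at 50 per 10000 and -0.20 with the Gm10709 term, and a gate of 2 gave 0.30 for Timd4, 0.070 for Marco, 0.24 for Spic and 0.17 for Nr1h3. For YAP7d minus YAP3d Timd4 was 0.11 at a gate of 2 and 0.37 without cells of other types, and Marco was -0.018 with DESeq2, -0.024 with only 2 groups, -0.036 with size factors, -0.23 with the block -0.071 with the Gm10709 term and -0.086 within the high set. For YAP3d minus WT the block gave 0.012 for Clec4f, 0.30 for Timd4, 0.16 for Cd5l, 0.20 for Nr1h3 and 0.35 for Cd163. A gate of 2 gave 0.19, 0.048, 0.30 and 0.050 for Timd4, Cd5l, Nr1h3 and Cd163. The Gm10709 term and the low set alone gave 0.092 and 0.087 for Timd4 and -0.55 and -0.54 for Cd209f. Folr2 was -0.018, -0.029, -0.98 and -0.083 at a gate of 10, at 10 per 10000, without cells of other types and at 50 per 10000, Spic -0.060 and -0.24 at a gate of 10 and at 50 per 10000, and Cd209f -0.14, -0.074 and -0.040 at a gate of 10 and at 10 and 50 per 10000. With 1 library left out, the ranges that crossed 0 for YAP7d minus WT were -0.42 to 0.37 (Cd5l), -1.18 to 0.85 (Marco) and -0.79 to 0.095 (Timd4), for YAP7d minus YAP3d -0.31 to 0.47, -0.30 to 0.28 and -0.76 to 0.12 for the same genes, and for YAP3d minus WT -0.53 to 0.34 (Cd163), -0.35 to 2.13 (Cd209f), -0.43 to 0.11 (Cd5l), -0.57 to 0.027 (Clec4f), -0.22 to 0.40 (Folr2), -1.22 to 0.78 (Marco), -0.21 to 0.0034 (Nr1h3), -0.19 to 0.22 (Timd4) and -0.37 to 0.087 (Vsig4). The Cd5l share within the 10 genes stayed 11.6 to 14.3 and 11.1 to 13.9 percentage points higher in YAP7d than in WT and YAP3d. Only the filter of 1 count (0.34 and 0.24) and leaving out WT replicate 2 (0.28 and 0.22) moved the median of all genes by over 0.1 on the log2 scale. Of 30 shares of cells with a UMI, 16 moved when cells were thinned to 2000 UMIs and 28 without thinning. A planned Gm10709 term at 1 CPM could not be fitted because all libraries were above it. Depth limits Cd209f most, since 2 libraries hold 1 UMI each.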
